A study of Homo sapiens with 6 samples.

Results

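S100 proteins are small calcium sensors of vertebrates, most of which fold into dimers with a pair of EF-hand loops per chain. On binding calcium they open a surface for other proteins, such as annexins and myosin, and several are also released and act on surface receptors such as RAGE (AGER) and TLR4. In squamous epithelium many are made at high levels, and most of their genes lie together on chromosome 1 within the epidermal differentiation complex, beside the genes of the cornified envelope. The 10 genes described here are S100A2, S100A4, S100A6, S100A7, S100A8, S100A9, S100A10, S100A11, S100A14 and S100P. They were chosen by gene symbol in the array's platform annotation, which gave 13 of the 41091 probe sets with 1 symbol and 10 of 19775 genes.

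The arrays were of SAS, an established human oral squamous carcinoma line, after knockdown of CYLD, a deubiquitinase that restrains NF-kB signalling. Of 6 Affymetrix arrays, 1 was of cells with siRNA against CYLD plus an inhibitor of ALK5, the type I receptor for TGF-β (siCYLD with inhibitor). The other groups were 1 array of control siRNA with inhibitor (siCtrl with inhibitor), 2 of siCYLD with DMSO and 2 of siCtrl with DMSO, the last 4 being called untreated below. All cells were of this 1 line, grew for 2 days after transfection and then spent 48 h in medium without serum with inhibitor or DMSO. The labels name neither the inhibitor compound nor the siRNA sequence, nor do they say whether duplicates were separate cultures, so p-values measure only how far these arrays vary, and that variation may be technical.

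Groups were taken from the array titles. For siCYLD replicate 1 the source name gave the control siRNA, and for siCtrl replicate 2 it gave the CYLD siRNA. The CYLD probe set 221903_s_at read 71.1 in siCYLD with inhibitor and 77.2 and 125 in untreated siCYLD, against 421 in siCtrl with inhibitor and 485 and 550 in untreated siCtrl, so the CYLD signal went with the titles. Over the 4 CYLD probe sets above the filter, untreated siCYLD arrays held 19.6% to 58.6% of the siCtrl signal. Results that rest on the 2 arrays with conflicting labels are given below also without them. Of 9 squamous epithelium markers, 7 had a probe set of their own and passed the filter, with a summed signal of 49900 to 65100 per array, and SFN, CDH1 and PERP each read at least 11700 on every array. Of the markers in that list, the basal keratin gene KRT14 (62.3 to 148) and PKP1 (3.75 to 85.7) were low. The ACTB 3'/5' ratio, a measure of RNA and labelling quality, was 2.26 to 2.48 on the 3 siCYLD arrays and 3.21 to 3.67 on the 3 siCtrl arrays. The GAPDH 3'/5' ratio did not separate them, at 1.8 to 1.97 on the siCYLD arrays and 1.79 to 2.14 on the siCtrl arrays. The poly-A RNA spikes added before labelling (9 probe sets) were higher in siCYLD by a median log2 difference of 0.28 (0.22 to 0.48) among untreated arrays and 0.36 (0.18 to 0.51) in the inhibitor pair. The inhibitor difference of the spikes was -0.04 (-0.19 to 0.16). Summed signals were 697 to 894 for 6 fibroblast markers and 231 to 399 for 3 endothelial ones. An array of a whole culture cannot tell less RNA per cell from fewer cells that carry the transcript.

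Of the 10 genes, 7 passed the filter on low values and were tested, and S100A7, S100A8 and S100P did not. The filter asked that at least 1 of the 4 group means lie above the median of all values, a signal of 79.3. Values below are either MAS5 signals, on a linear scale, or log2 differences of signal + 16.06 with their standard error from limma. A gene is said to be called when its adjusted p was below 0.05 (limma, Benjamini-Hochberg over 12935 genes). Signals of different genes come from different probes and are not set against each other.

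**Figure D1:**
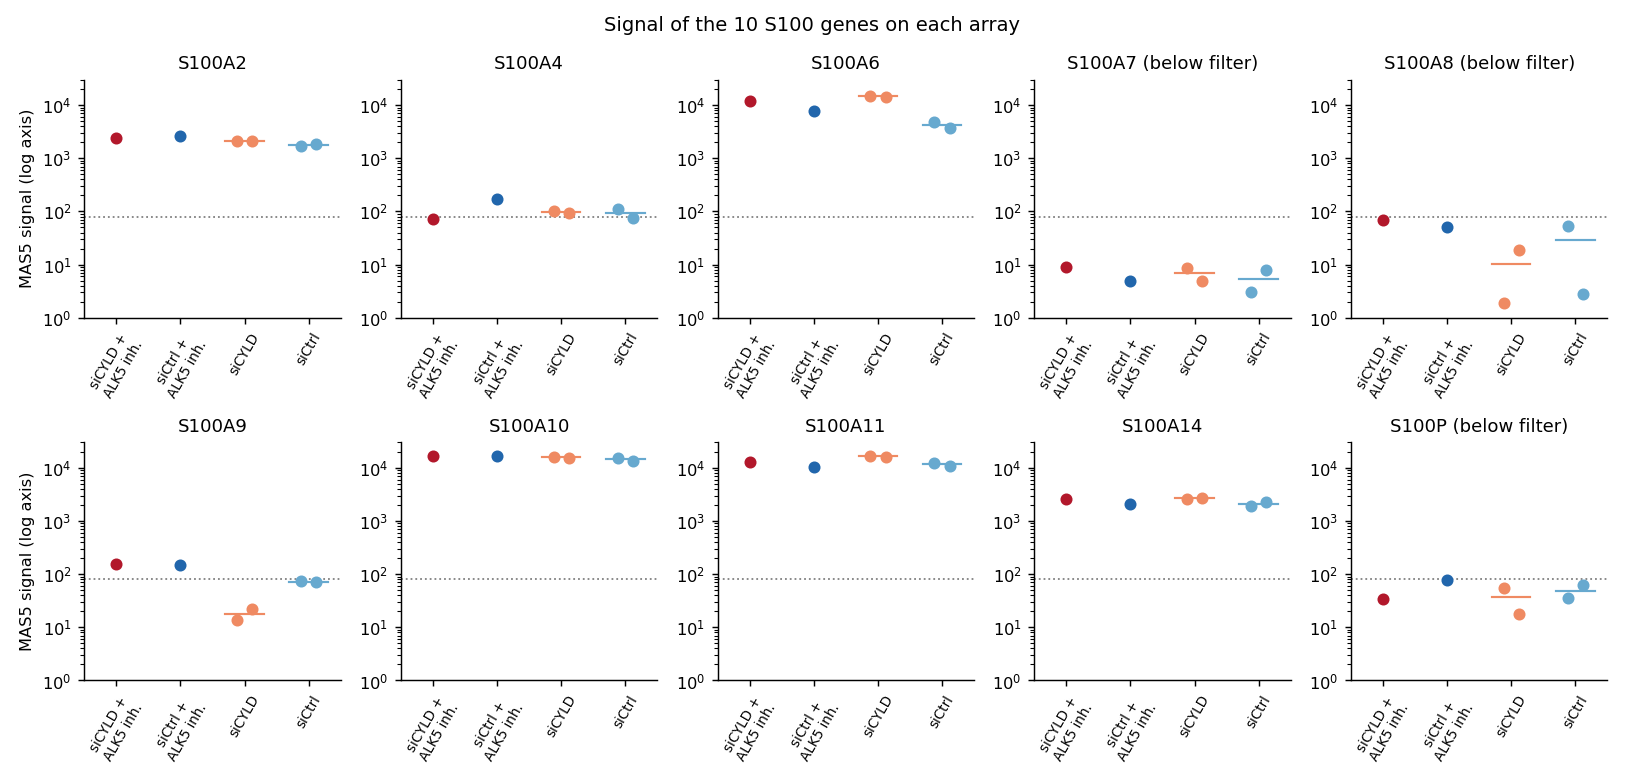
MAS5 signal (log axis) of each of the 10 S100 genes on each array, for the probe set with the highest mean, in siCYLD with inhibitor, siCtrl with inhibitor, untreated siCYLD and untreated siCtrl. Points are single arrays, short lines are means of 2 arrays, and the dotted line marks the filter signal of 79.3; S100A6 and S100A9 show the widest separation of groups, and S100A7, S100A8 and S100P lie below the line on every array.

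S100A6 (calcyclin) showed the largest log2 difference of the 7 tested genes with the knockdown at the offset of 16.06. This rank depended on the offset, as with an offset of 1 S100A9 had -2.01 and S100A6 1.79. The S100A6 protein is a cytosolic calcium sensor of proliferating epithelial and fibroblast cells that binds CACYBP, SUGT1 and annexins. RefSeq (GRCh38.p14) places its gene on the minus strand of chromosome 1 between S100A7 and S100A5. Its promoter window, 250 bases before to 50 after the start at chr1:153535942-153536241, is printed because the knocked-down gene acts on NF-kB. Capitals mark matches to the NF-kB motif searched on both strands, which was 3 G, any 5 bases and 2 C.

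S100A6 promoter window: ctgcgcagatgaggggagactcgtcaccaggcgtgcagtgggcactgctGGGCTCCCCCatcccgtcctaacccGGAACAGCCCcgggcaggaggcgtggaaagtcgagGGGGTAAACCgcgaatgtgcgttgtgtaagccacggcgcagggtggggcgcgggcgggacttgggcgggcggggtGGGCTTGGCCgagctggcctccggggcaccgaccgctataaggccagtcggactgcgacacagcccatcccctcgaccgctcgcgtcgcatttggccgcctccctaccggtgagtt

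The 4 matches begin at positions -201, -176, -141 and -66 from the start. In all, 58.7% of 35116 RefSeq promoter windows of that length hold such a match, and 9 of the 13 windows of the 10 S100 genes do. Among the tested genes, S100A4 had 6 matches, S100A10 5, S100A6 and S100A14 4, S100A11 1, S100A2 1 in either window and S100A9 0. A match describes letters and not a site.

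Probe set 217728_at of S100A6 read 15000 and 14100 in untreated siCYLD cells, against 4760 and 3720 in untreated siCtrl cells. The groups lay apart, at a signal ratio of 3.42, and the log2 difference was 1.78 ± 0.11 (adjusted p = 3.11e-07, limma). With the inhibitor siCYLD cells gave 11800 and siCtrl cells 7840, a ratio of 1.51. All 3 siCYLD arrays were above all 3 siCtrl arrays, as for 12.6% of all genes tested (15.3% had them below), and the siRNAs lay closest together under the inhibitor. From high to low the groups ran untreated siCYLD, siCYLD with inhibitor, siCtrl with inhibitor and untreated siCtrl. The step between the siCYLD groups did not pass the test (-0.29 ± 0.14, adjusted p = 0.146, limma). It crossed the threshold with the replicate block and without siCtrl replicate 1 or 2. In those fits the difference stayed at -0.29 and its error was smaller. More of all genes were called in siCYLD cells too, 3408 to 3813 against 2900. Without a siCtrl array only the untreated siCYLD pair and the other genes informed the spread, and the replicate numbers were not taken as pairs. The step between the siCtrl groups passed (0.90 ± 0.14, adjusted p = 0.00138), and the step in the middle is 1 array against 1.

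The knockdown difference of S100A6 was smaller with the inhibitor than without it, by 1.19 ± 0.19 on the log2 scale (interaction -1.19, adjusted p = 0.00622, limma). This interaction call rested on 1 array per siRNA with inhibitor and was lost with no filter (adjusted p = 0.123), with the mean of kept probe sets (-0.76, adjusted p = 0.0996) and with no intensity trend in the moderation (adjusted p = 0.264). The other S100A6 probe set, 228923_at, read 273 in siCYLD with inhibitor and 283 and 328 in untreated siCYLD, against 163 in siCtrl with inhibitor and 132 and 152 in untreated siCtrl. It too was higher on all 3 siCYLD arrays, and in a fit of each of 24537 probe sets its knockdown difference was 1.03 ± 0.20 (adjusted p = 0.0035, limma). Its interaction was -0.34 ± 0.34 (adjusted p = 0.751), so the 2 probe sets shared the knockdown call and not the interaction call. With the 2 conflicting arrays left out, a fit of 1 array per group averaged the untreated and inhibitor differences. It gave 1.08 for S100A6. No group has a replicate in that fit, and its spread comes from how far those 2 differences disagree and from the other genes. The same limit holds for every adjusted p given below with both conflicting arrays left out. The interaction was -1.14 without siCYLD replicate 1 and -1.01 without siCtrl replicate 2, and the inhibitor difference in siCtrl cells was 0.72 without siCtrl replicate 2. In every such fit with 1 untreated array left out, only 1 pair of arrays remained to inform the spread. The spread was otherwise drawn from the other genes, and the lone arrays were assumed to vary alike, so these are given as values. With no intensity trend the inhibitor call in siCtrl cells did not hold (adjusted p = 0.118).

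S100A9 moved the other way with the knockdown and was raised by the inhibitor. Its protein pairs with S100A8 to form calprotectin, the metal-binding, inflammation-related complex that is abundant in neutrophils and is induced in stressed keratinocytes. The gene lies between PGLYRP4 and S100A12 on chromosome 1, on the plus strand, and its window (RefSeq, GRCh38.p14, chr1:153357604-153357903) is printed for comparison with that of S100A6.

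S100A9 promoter window: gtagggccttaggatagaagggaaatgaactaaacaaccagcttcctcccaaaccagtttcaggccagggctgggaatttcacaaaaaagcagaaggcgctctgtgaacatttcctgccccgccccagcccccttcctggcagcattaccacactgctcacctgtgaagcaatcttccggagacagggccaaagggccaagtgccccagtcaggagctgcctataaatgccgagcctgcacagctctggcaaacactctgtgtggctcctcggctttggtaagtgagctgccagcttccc

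It is all in lower case because none of the 3 motifs searched has a match in it. These were the NF-kB letters above, the AP-1 letters TGANTCA and the SMAD letters CAGACA, each on both strands. Over all 35116 windows, 7.71% hold the AP-1 letters and 16.9% the SMAD letters, against 1 and 5 of the 13 windows of the S100 genes. No match says only that these letters are not in this window.

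The S100A9 signal was 13.6 and 21.8 in untreated siCYLD cells, against 74.5 and 70.8 in untreated siCtrl cells. The siCYLD values were near the offset of 16.06, the 20th percentile of all signals, and did not overlap with siCtrl, and no signal ratio is given against them. The log2 difference was -1.40 ± 0.38 (adjusted p = 0.0183, limma). Its size depended on the offset, at -2.01 with an offset of 1 and -0.74 with one of 64, both called. With the inhibitor both arrays were higher than all 4 untreated ones, at 155 in siCYLD cells and 148 in siCtrl cells, and the 2 lay close together.

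The inhibitor difference of S100A9 was 1.62 ± 0.39 across both siRNAs (adjusted p = 0.0156, limma). Within siCYLD cells it was 2.35 ± 0.46 (adjusted p = 0.00307) and within siCtrl cells 0.89 ± 0.46 (adjusted p = 0.26). Offsets of 1 and 64 gave 2.06 and 1.03 across both siRNAs and 3.10 and 1.43 in siCYLD cells, all called. The difference between these 2 values, the interaction, was 1.47 ± 0.66 and was not called (adjusted p = 0.347), so the 2 siRNAs are not shown to differ in it. S100A9 passed the filter only through the inhibitor arrays, so a difference there was part of its being tested at all. Without the siCYLD inhibitor array the inhibitor call was lost (0.89, adjusted p = 0.31). With the 2 conflicting arrays left out, the inhibitor difference was 1.52 (adjusted p = 0.0328) and the knockdown difference, averaged with the inhibitor pair, -0.60 (adjusted p = 0.476). That average was -0.92 over all 6 arrays (adjusted p = 0.1). The inhibitor difference in siCYLD cells was 2.18 without siCYLD replicate 1, a comparison of 1 array with 1.

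**Figure D2:**
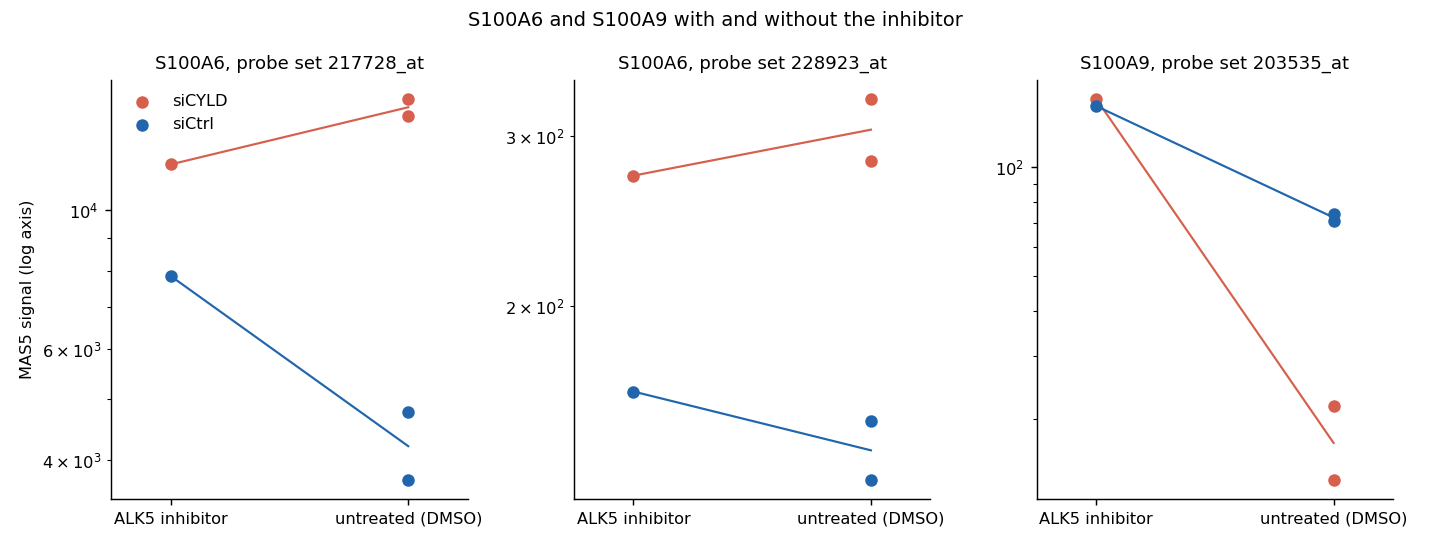
MAS5 signal (log axes with separate ranges) of both S100A6 probe sets and of S100A9, with the inhibitor on the left of each panel and untreated on the right. Points are arrays, and lines join the geometric group means of siCYLD and siCtrl; in S100A6 probe set 217728_at the siRNA lines come closer under the inhibitor (11800 and 7840), and in S100A9 they nearly meet (155 and 148).

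S100A8, the partner of S100A9, stayed below the filter. Its probe set 202917_s_at read 67.9 in siCYLD with inhibitor, 1.88 and 18.9 in untreated siCYLD, 50 in siCtrl with inhibitor, and 54.1 and 2.76 in untreated siCtrl. Replicates of each untreated group lay far apart, and the untreated groups overlapped. In a fit of all 19775 genes without the filter S100A8 had an inhibitor difference of 1.30 ± 0.55 (adjusted p = 0.183, limma) and a knockdown difference of -0.54 ± 0.64 (adjusted p = 0.698). Its other probe set, 214370_at, read 1.17 to 4.45 over the 6 arrays. Of 10 myeloid markers, 2 passed the filter and 0 were called with the knockdown or the inhibitor (0 also at an unadjusted limma p below 0.05). Their summed signal was 431 in siCYLD with inhibitor, 373 in siCtrl with inhibitor, 352 and 493 in untreated siCYLD and 413 and 427 in untreated siCtrl. PTPRC, the pan-leukocyte marker CD45, read 4.16 to 42.3 and CD14 read 40.3 to 73.5. Of the endothelial markers VWF moved with S100A9 under the inhibitor, at 169 in siCYLD with inhibitor and 169 in siCtrl with inhibitor, against 71.4 and 35.9 in untreated siCYLD and 25 and 70.1 in untreated siCtrl. Its difference was 1.54 (adjusted p = 0.0165) and, with the 2 conflicting arrays left out, 2.00 (adjusted p = 0.00589). VWF, like S100A9, passed the filter only through the inhibitor arrays. PECAM1 was not called (0.01, adjusted p = 0.975), and the part of such cells in the S100A9 result was not tested.

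S100A11 and S100A14 were moderately higher with the knockdown. S100A11 (calgizzarin) binds annexins A1 and A2 and is a growth-related calcium sensor of keratinocytes. S100A14 is an epithelial member of the family found at cell borders. S100A11 read 16900 and 15800 in untreated siCYLD cells, against 12400 and 10700 in untreated siCtrl cells, and 12900 in siCYLD with inhibitor against 10500 in siCtrl with inhibitor. S100A14 read 2630 and 2670 in untreated siCYLD cells, against 1910 and 2290 in untreated siCtrl cells, and 2600 in siCYLD with inhibitor against 2090 in siCtrl with inhibitor. For both genes all 3 siCYLD arrays were above all 3 siCtrl arrays, against 12.6% of all genes.

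The knockdown difference of S100A11 was 0.50 ± 0.09 (adjusted p = 0.00167, limma) and that of S100A14 0.34 ± 0.11 (adjusted p = 0.0484). The spikes differed in the same direction by a median of 0.28. The ACTB ratio separated the same arrays, and the GAPDH ratio did not. The part of spikes or RNA quality in these differences was not tested. The S100A14 call was lost without siCtrl replicate 1 (0.21, adjusted p = 0.241), without siCYLD replicate 1 (0.35, adjusted p = 0.098), without siCYLD replicate 2 (0.33, adjusted p = 0.128) and under several other settings. With the 2 conflicting arrays left out, the averaged differences were 0.32 for S100A11 (adjusted p = 0.222) and 0.40 for S100A14 (adjusted p = 0.171). The S100A11 call also needed the intensity trend (adjusted p = 0.0809 with none). The inhibitor difference of S100A11 in siCYLD cells was -0.33 ± 0.11 (adjusted p = 0.0482). This call was lost without siCYLD replicate 1 (-0.28, adjusted p = 0.151), and the interaction was -0.20 (adjusted p = 0.627). S100A14 had inhibitor differences of -0.03 ± 0.14 in siCYLD cells and -0.003 ± 0.14 in siCtrl cells.

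S100A2 was raised by the inhibitor. It is a mainly nuclear family member of basal keratinocytes, and its gene lies between S100A3 and S100A16. Of its 2 RefSeq windows, the 1 at chr1:153565795-153566094 on the minus strand (GRCh38.p14) is printed because it is the only window of the 10 genes with a match to the AP-1 letters, in capitals.

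S100A2 promoter window: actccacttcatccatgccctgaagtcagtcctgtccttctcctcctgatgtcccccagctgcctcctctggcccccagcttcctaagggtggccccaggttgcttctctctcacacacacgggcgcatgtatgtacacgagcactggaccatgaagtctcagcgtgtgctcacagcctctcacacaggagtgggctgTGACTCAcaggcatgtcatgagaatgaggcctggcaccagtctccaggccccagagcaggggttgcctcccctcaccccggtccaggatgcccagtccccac

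That match, TGACTCA, begins at position -52 from the start, and no matches of different motifs overlap in the 3 windows printed. This S100A2 window also holds 1 match to the NF-kB letters, left in lower case.

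The S100A2 signal was 2430 in siCYLD with inhibitor and 2670 in siCtrl with inhibitor, against 2150 and 2100 in untreated siCYLD and 1710 and 1870 in untreated siCtrl. Both inhibitor arrays were above all untreated ones, and untreated siCYLD was above untreated siCtrl. The inhibitor difference was 0.38 ± 0.11 across both siRNAs (adjusted p = 0.0369, limma), 0.19 ± 0.13 in siCYLD cells (adjusted p = 0.322) and 0.57 ± 0.13 in siCtrl cells (adjusted p = 0.0144). The interaction, -0.38 ± 0.18, was not called (adjusted p = 0.381). The call across both siRNAs was lost when any array other than that of siCYLD with inhibitor was left out, with adjusted p of 0.0667 to 0.326, the highest without siCtrl with inhibitor (0.19). It was also lost with the 2 conflicting arrays left out (0.42, adjusted p = 0.138). In siCtrl cells the difference was 0.64 without siCtrl replicate 2, with a spread from the untreated siCYLD pair and the other genes. The call in siCtrl cells was lost with no intensity trend (adjusted p = 0.135, limma). The knockdown difference of 0.25 ± 0.11 was not called (adjusted p = 0.115). The summed squamous markers were also highest with the inhibitor, at 54000 in siCYLD with inhibitor and 65100 in siCtrl with inhibitor, against 49900 to 52100 on the untreated arrays, with 1 of the 7 called, the basal keratin gene KRT5 (2.98, adjusted p = 5.28e-06, and 3.005 without the conflicting arrays, adjusted p = 3.45e-08). Without KRT5 the sum of the other 6 was 48400 in siCYLD with inhibitor and 52500 in siCtrl with inhibitor, against 48700 to 51000 on the untreated arrays, so the higher sum in siCYLD cells was that of KRT5. With the knockdown 1 of these 7 markers was called lower, the desmosomal cadherin gene DSG3 (-0.64, adjusted p = 0.00224, and -0.86 without the conflicting arrays, adjusted p = 0.00768). In siCYLD cells DSG3 was also called lower with the inhibitor (-0.67, adjusted p = 0.00667). The part of these markers in the S100A2 difference was not tested.

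S100A10 (p11) and S100A4 were not called in any of the 5 comparisons. S100A10 has lost calcium binding and joins annexin A2 in a membrane complex. Its probe set 200872_at read 16900 in siCYLD with inhibitor, 16600 in siCtrl with inhibitor, 16300 and 15400 in untreated siCYLD and 15500 and 13300 in untreated siCtrl. This was the narrowest log2 range of the tested genes, 0.35 over the 6 arrays. The inhibitor arrays were highest, but the difference of 0.15 ± 0.09 was not called (adjusted p = 0.246, limma), nor was the knockdown difference of 0.14 ± 0.09 (adjusted p = 0.305). The other probe set, 238909_at, read 197 to 283 and had a knockdown difference of 0.23 ± 0.19 (adjusted p = 0.459).

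S100A4 (metastasin) binds non-muscle myosin heavy chain and is linked to cell motility. It read 73.2 in siCYLD with inhibitor and 171 in siCtrl with inhibitor, against 102 and 93.1 in untreated siCYLD and 111 and 73.7 in untreated siCtrl. The siCtrl inhibitor array was the highest and the siCYLD inhibitor array the lowest, while untreated groups overlapped. Its knockdown difference was 0.09 ± 0.31 (adjusted p = 0.869, limma), and the inhibitor difference was -0.35 ± 0.37 in siCYLD cells (adjusted p = 0.555) and 0.81 ± 0.37 in siCtrl cells (adjusted p = 0.203). The interaction of -1.16 ± 0.53 was not called (adjusted p = 0.358).

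S100A7 (psoriasin), an antimicrobial protein of inflamed skin, read 9.1 in siCYLD with inhibitor, 4.88 in siCtrl with inhibitor, 8.68 and 4.94 in untreated siCYLD and 3.04 and 7.75 in untreated siCtrl. All 6 values were below the offset of 16.06. S100P, which activates ezrin and whose gene is the only member outside chromosome 1 (it is on chromosome 4), read 34.4 in siCYLD with inhibitor, 76.9 in siCtrl with inhibitor, 55.4 and 17.7 in untreated siCYLD and 36 and 61.7 in untreated siCtrl. Groups overlapped for both genes. In the fit without the filter neither was called, with knockdown differences of 0.10 ± 0.33 for S100A7 (adjusted p = 0.911, limma) and -0.37 ± 0.46 for S100P (adjusted p = 0.712).

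Over the comparisons, 4 of the 7 tested genes were called with the knockdown, 3 higher and 1 lower, where 21.3% of all 12935 genes were called, 9.49% higher and 11.8% lower. Their median log2 difference was 0.25, against -0.04 over all genes and 0.28 for the poly-A spikes. Untreated siCYLD and siCtrl arrays did not overlap for 5 of the 7, S100A2, S100A6, S100A11 and S100A14 higher and S100A9 lower. Of all genes 60.9% did not overlap, 26.8% higher and 34.1% lower.

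With the inhibitor across both siRNAs, S100A2 and S100A9 were called higher, with 3 of the 7 at an unadjusted limma p below 0.05, and no member was called lower. Of all genes 20% were called, 11.2% higher and 8.82% lower, and the median was 0.23 for the 7 genes and 0.01 for all. Both inhibitor arrays lay above all untreated ones for 3 of the 7 (S100A2, S100A9 and S100A10) and below them for 0, against 15.7% and 14.4% of all genes. S100A9 passed the filter only through the inhibitor arrays, so the filter had a part in its place in these counts. In siCYLD cells S100A9 was called higher and S100A11 lower, against 22.4% of all genes called, 12.2% higher and 10.2% lower. In siCtrl cells S100A2 and S100A6 were called higher, against 9.36% called, 5.02% higher and 4.34% lower. The knockdown and inhibitor comparisons share the untreated arrays.

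The interaction was called for 1 of the 7, S100A6, on the lower side, where 1.67% of all genes were called, 0.982% higher and 0.688% lower. Within the inhibitor pair, 1 array against 1 and without a test, siCYLD minus siCtrl was 0.60 for S100A6, 0.32 for S100A14, 0.30 for S100A11, 0.06 for S100A9, 0.02 for S100A10 (-0.067 with quantile normalization and -0.0333 with the mean of probe sets), -0.14 for S100A2 and -1.07 for S100A4. S100A4 alone passed 1 on the log2 scale, on the lower side, as 2.81% of all genes did, and 3.91% passed it on the higher side. In this pair the poly-A spikes differed by a median of 0.36 (0.18 to 0.51), and their part in these values was not tested.

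**Figure D3:**
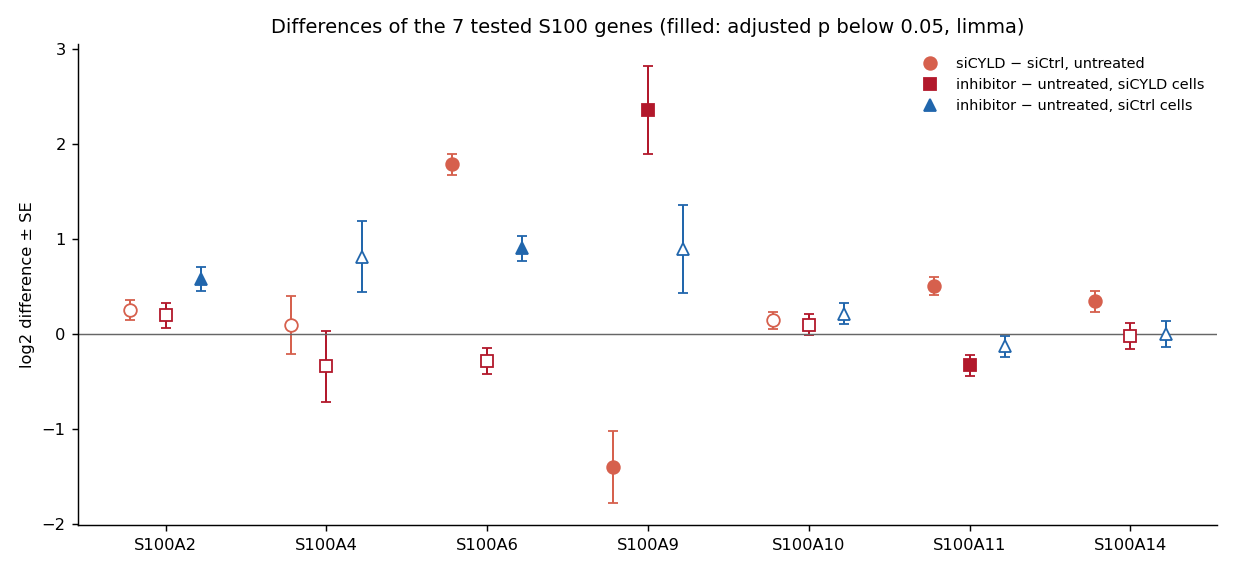
Log2 differences (± standard error, limma) of the 7 tested S100 genes for siCYLD minus siCtrl untreated (circles), and inhibitor minus untreated in siCYLD cells (squares) and in siCtrl cells (triangles), with filled symbols where the adjusted p was below 0.05. S100A6 stands at 1.78 with the knockdown, and S100A9 at -1.40 with the knockdown and 2.35 with the inhibitor in siCYLD cells.

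Genes with the most similar profile over the 6 arrays were found by the root mean square difference of centred log2 values, for the 3 members of widest range. The range was 2.53 for S100A9, 2.00 for S100A6 and 1.07 for S100A4. Nearest to S100A9 were RAD54L (0.14), HCFC1R1 (0.19) and CLDN11 (0.20). Nearest to S100A6 were TMEM44 (0.17), ADAM12 (0.19) and PARVB (0.20). Nearest to S100A4 were CAPN3 (0.10), LINC01410 (0.10) and SPACDR (0.14). Members of the S100 set were left out of this search, and the distances were not tested.

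Of 10 other S100 genes on the array, 4 were tested, and 2 were called higher and 0 lower with the knockdown (of all genes, 9.49% higher and 11.8% lower). S100A13, which aids the release of FGF1 and is the neighbour of S100A14, read 1370 and 1330 in untreated siCYLD cells, against 1100 and 977 in untreated siCtrl cells, a difference of 0.37 ± 0.12 (adjusted p = 0.0458, limma). S100A16, the neighbour of S100A14 on the other side, read 7030 and 7370 in untreated siCYLD cells, against 5110 and 6060 in untreated siCtrl cells, also 0.37 ± 0.10 (adjusted p = 0.0189). The spikes differed in the same direction by a median of 0.28. S100A3 had 1.08 ± 0.47 (adjusted p = 0.12) and S100A1 -0.25 ± 0.43 (adjusted p = 0.722). With the inhibitor 0 were called higher and 1 lower (of all genes, 11.2% and 8.82%). S100A13 read 925 in siCYLD with inhibitor and 641 in siCtrl with inhibitor, below all untreated arrays, a difference of -0.61 ± 0.11 (adjusted p = 0.00444). The medians of the 4 were 0.37 for the knockdown and 0.18 for the inhibitor.

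Of 7 receptors that S100 proteins act on, 5 were tested, 1 was called higher and 1 lower with the knockdown (median 0.01), and 1 higher and 0 lower with the inhibitor (median 0.04). Of all genes 21.3% and 20% were called in these comparisons. MCAM (CD146), a receptor of S100A8 and S100A9, read 288 and 398 in untreated siCYLD cells, against 175 and 189 in untreated siCtrl cells, a difference of 0.84 ± 0.20 (adjusted p = 0.00784, limma). BSG (basigin), a receptor of S100A9, read 1780 and 1850 in untreated siCYLD cells, against 2260 and 3300 in untreated siCtrl cells, a difference of -0.59 ± 0.15 (adjusted p = 0.0118). With the inhibitor BSG was called higher (0.43 ± 0.14, adjusted p = 0.0483). AGER, which encodes RAGE, had a knockdown difference of -0.85 ± 0.31 that was not called (adjusted p = 0.0646).

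Among 14 binding partners analysed here of 15 listed, 2 were called higher and 4 lower with the knockdown (median 0.01), where 9.49% of all genes were called higher and 11.8% lower. Of the 4 annexins listed, ANXA2 was called higher and ANXA1 lower, while ANXA6 (0.44, adjusted p = 0.507, limma) and ANXA11 (0.14, adjusted p = 0.263) were not called. ANXA2, the partner of S100A10 and S100A11, read 9020 and 8280 in untreated siCYLD cells, against 5220 and 5400 in untreated siCtrl cells, a difference of 0.70 ± 0.09 (adjusted p = 0.0001, limma). ANXA1, a partner of S100A11, read 4360 and 3700 in untreated siCYLD cells, against 8570 and 8200 in untreated siCtrl cells, a difference of -1.06 ± 0.10 (adjusted p = 7.67e-06). MYH9, the myosin chain bound by S100A4, was higher by 0.46 ± 0.09 (adjusted p = 0.00239). DLC1, a binding partner of S100A10, had -0.40 ± 0.09 (adjusted p = 0.00644). The remaining calls were CACYBP, the calcyclin-binding protein, which had -0.33 ± 0.09 (adjusted p = 0.0222), and ezrin (EZR), a partner of S100P, which had -0.31 ± 0.10 (adjusted p = 0.0453).

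With the inhibitor 2 of the 14 partners were called higher and 0 lower (median 0.09), near the 11.2% of all genes called higher. FABP5, the epidermal fatty acid-binding protein that joins S100A7, read 3020 in siCYLD with inhibitor and 2280 in siCtrl with inhibitor, against 1230 and 966 in untreated siCYLD and 1010 and 1160 in untreated siCtrl. Both inhibitor arrays were far above the rest, and the difference was 1.26 ± 0.14 (adjusted p = 0.000255, limma). MYH9 was higher by 0.27 ± 0.08 (adjusted p = 0.0456).

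Of 18 cornified envelope genes of the same complex, 14 had a probe set of their own and 5 were tested. With the knockdown 1 was called higher and 0 lower (median 0.63, the value of LCE3D), against 9.49% and 11.8% of all genes. LCE3D and SPRR1A passed the filter only through siCYLD groups, so the filter had a part in this median. SPRR2B, a small proline-rich cross-bridging protein, read 198 and 195 in untreated siCYLD cells, against 85.8 and 110 in untreated siCtrl cells, a difference of 0.91 ± 0.25 (adjusted p = 0.0206, limma). With the inhibitor 0 were called higher and 2 lower (median -0.88), against 11.2% and 8.82% of all genes. SPRR1A and SPRR2G (-1.16, not called) passed the filter only through untreated groups, so the filter had a part in this median too. SPRR1A read 21.9 in siCYLD with inhibitor and 14.6 in siCtrl with inhibitor, against 115 and 121 in untreated siCYLD and 53.8 and 50.2 in untreated siCtrl, a difference of -1.49 ± 0.37 (adjusted p = 0.0174). SPRR1A passed the filter only through untreated siCYLD, so a lower inhibitor value there was part of its being tested, and its inhibitor signals lay near the offset of 16.06. SPRR4 had -0.88 ± 0.27 (adjusted p = 0.042). SPRR probe sets can share sequence with their paralogs, so which SPRR gene a signal came from is uncertain.

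With the 2 conflicting arrays left out, all 11 knockdown calls in these 4 lists kept their direction and 4 kept the call, in the fit that averages the untreated and inhibitor differences. ANXA1 (-1.004, adjusted p = 0.000513, limma), ANXA2 (0.82, adjusted p = 0.00256), MCAM (0.85, adjusted p = 0.0289) and SPRR2B (1.58, adjusted p = 0.0068) kept it. S100A13, S100A16, BSG, MYH9, DLC1, CACYBP and EZR did not, with CACYBP moving furthest, to -0.03. For CACYBP the untreated arrays kept read 3760 in siCYLD and 4610 in siCtrl. Its inhibitor pair, which enters that average, read 5610 in siCYLD and 4800 in siCtrl. This fit changed both the arrays and the quantity estimated, and the 2 changes were not separated. Of the 6 inhibitor calls, FABP5, BSG, S100A13 and SPRR4 kept theirs, while MYH9 (0.24, adjusted p = 0.382) and SPRR1A (-1.52, adjusted p = 0.128) did not.

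**Figure D4:**
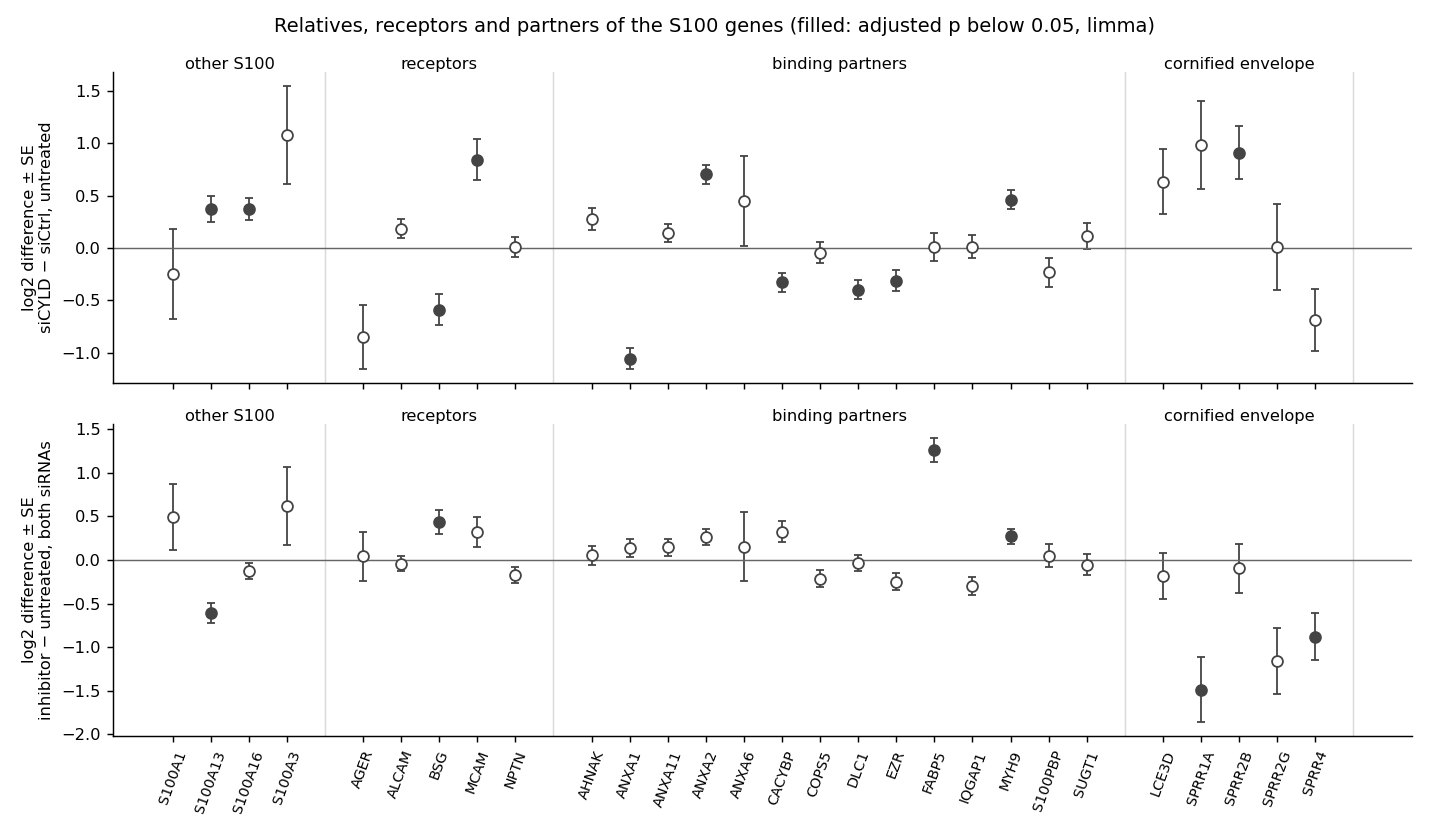
Log2 differences (± standard error, limma) of tested genes of 4 lists, other S100 genes, S100 receptors, S100 binding partners and cornified envelope genes, for siCYLD minus siCtrl untreated (top) and inhibitor minus untreated across both siRNAs (bottom). Filled points had an adjusted p below 0.05; ANXA1 is lowest among the called genes of the top panel (-1.06) and FABP5 is highest in the bottom panel (1.26).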

How the data were processed

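RNA of 6 samples was measured on Affymetrix arrays. Per the submitters' processing notes the authors made the deposited intensity values, called signals here, with MAS5, whose version is not given in the sources used here. Signals are linear, and their mean after trimming 2% at each end was 500.1 on every array, so no further scaling was applied. Per-array medians ran from 73.4 to 84.8. Arrays carry no read depth, and their number limits the precision.

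Of 54675 probe sets, 62 were controls, 41091 had 1 symbol in the platform annotation, 1801 several and 11721 none. Entrez identifiers of 41037 were found in RefSeq, which changed 0 symbols. Values were log2(signal + 16.06), with the 20th percentile of all values as offset. Probe sets were kept where the highest group mean passed the median of all log2 values (24537 kept), and the kept probe set of highest mean stood for a gene (12935 tested). Differences on this scale understate changes of genes near the offset.

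Linear models used limma 3.58.1 (R 4.3.3) with an intensity trend and were tested on simulated data. The simulation drew normal noise with the fit's own spread per gene, equal on every array, so it could not test how lone arrays vary. Knockdown, interaction and inhibitor within each siRNA came from 4 group means (2 residual and 10.9 prior degrees of freedom), inhibitor across both siRNAs from siRNA plus inhibitor (3 and 7.98). Lone inhibitor arrays were assumed to vary as the duplicates did. Tests were two-sided. Same-numbered untreated arrays deviated together at a correlation of 0.0447, so the numbers were not taken as pairs. Figures used matplotlib 3.10.9.

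The 10 genes and the lists were chosen with earlier results of these data known. From each list, the called genes were named, at most the 4 of largest change per comparison. CACYBP and EZR were added to these after their values were seen, and other values were given as not called. Promoter windows came from RefSeq (GRCh38.p14), whose coordinates were used for the sequences only. Protein sequences were not used here. Alternatives were another offset, no filter, quantile normalization, other choices of probe set, no trend, robust moderation, each array left out, a replicate block, grouping by source name, additive fits, and (chosen after seeing the data) each kept probe set tested on its own.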

Additional observations from a re-analysis of the deposited data

Results flagged for a closer look

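S100A6 is listed because the knockdown difference differed between cells with and without the inhibitor. The interaction was -1.19 ± 0.19 on the log2 scale (adjusted p = 0.00622, limma). The siCYLD minus siCtrl difference was 0.60 in the inhibitor pair and 1.78 in untreated cells. The other probe set of the gene had an interaction of -0.34 that was not called (adjusted p = 0.751).

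KRT5, the basal keratin gene among the squamous markers, is listed for the same reason, with an interaction of -0.84 (adjusted p = 0.0463, limma). Its signal was 5600 in siCYLD with inhibitor and 12500 in siCtrl with inhibitor, against 900 and 968 in untreated siCYLD and 1090 and 1250 in untreated siCtrl. In siCYLD cells the inhibitor difference was 2.56, and in siCtrl cells 3.41. Both interactions rest on 1 inhibitor array per siRNA. With no intensity trend neither was called, as 0 of all genes were.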

How the results depend on the processing

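Without the intensity trend the knockdown gave 2 calls in place of 4, the inhibitor 1 in place of 2 across both siRNAs, 1 in place of 2 in siCYLD cells and 0 in place of 2 in siCtrl cells, and the interaction 0 in place of 1; over all genes the counts were 1219, 1087, 1055, 35 and 0, against 2757, 2586, 2900, 1211 and 216. With no filter the inhibitor gave 1 call across both siRNAs and 1 in siCYLD cells and the interaction 0. Over all genes these counts were 1784, 1819 and 33, with 478 in siCtrl cells. The mean of probe sets gave 1 call in siCYLD cells (2229 over all genes) and 0 for the interaction (95 over all genes). In siCYLD cells, 1 call was also left with an offset of 1 (all genes: 2841). The same held with _x_at and _s_at probe sets dropped (2026) and with each probe set tested on its own (2581). Dropping _x_at and _s_at probe sets left 134 interaction calls over all genes. With the replicate block the inhibitor across both siRNAs gave 1 call (adjusted p = 0.0608 for S100A2, limma). Over all genes the block gave 2090 across both siRNAs, 2097 in siCtrl cells and 723 for the interaction. Leaving out 1 array gave 3 to 4 knockdown calls, 1 to 2 for the inhibitor across both siRNAs and 1 to 3 in siCYLD cells. Over all genes the inhibitor count was 1232 without siCYLD with inhibitor, 1547 and 1706 without siCYLD replicates 1 and 2 and 1668 without siCtrl replicate 1, and the interaction count 455 and 361 without siCYLD replicates 1 and 2. Without both arrays with conflicting labels there was 1 knockdown call, S100A6, and 1 inhibitor call, S100A9 (all genes: 1052 and 1325).

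Grouping by source name, which puts 1 array of each title in each untreated group, gave 0 knockdown calls among the S100 genes and 0 over all genes; S100A6 was -0.22, S100A11 -0.15, S100A10 -0.15, S100A4 -0.30 and S100A9 0.15. The other reversals were of values that were not called. S100A4 had knockdown differences of -0.16 to 0.34 with 1 array left out, -0.64 without both conflicting arrays and -0.30 in the additive fit of all 6, and inhibitor differences of -0.35 to 0.81. S100A6 had -0.29 to 0.90 for the inhibitor across both siRNAs, the highest value being called, and S100A14 -0.0736 to 0.0385 (0.0454 without both conflicting arrays), -0.13 to 0.13 in siCtrl cells and -0.16 to 0.11 for the interaction. The cause of these changes was not tested beyond the settings' own construction. Of the tested single-gene values under all settings, 472 kept direction and side of the threshold, 36 lost a call, 5 gained one and 14 reversed. Of 41 untested values of the inhibitor pair, 2 changed sign, both of S100A10, and 1 moved by more than the spread of replicates.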
